A study of Homo sapiens with 9 samples.

Results

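A set of 39 genes of the p53 response and of DNA repair was followed in HaCaT cells, an immortalized line of human keratinocytes, after a short exposure to an extremely low frequency electromagnetic field (ELF-EMF). The set holds 13 targets of p53 and 26 genes of damage signalling and repair, chosen by name because the genotoxicity of low-frequency fields is an old question. A probe was taken if its platform gene symbol was one of the 39, which gave 44 of the 30968 probes of the array, none of them through a synonym. XPC and DDB2, repair genes that p53 also induces, were counted as repair genes. The exposed cells had received a 50 Hz field of 1 mT for 1 h, and the non-exposed cells had stood in an identical incubator without the field (labelled sham). Both had been synchronized by serum starvation, released by serum and seeded from the same flask, so all groups share that history. RNA of 3 biological samples (A, B and C) was hybridized on 2-colour Phalanx Human OneArray slides, with 2 arrays per sample carrying the exposed RNA in Cy5 (A1 and A2, B1 and B2, C1 and C2) and 1 dye swap carrying it in Cy3, 9 arrays in all. Every value below is a log2 ratio of exposed over non-exposed cells, with the dye swaps turned, so that a value above 0 means more signal in exposed cells. In bulk RNA, fewer cells holding a transcript and less of it per cell cannot be told apart.

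As background, p53 is a transcription factor that is stabilized when the kinases ATM and ATR sense broken or stalled DNA. It then induces genes that stop the cell cycle (CDKN1A, GADD45A, PLK2) and genes that start apoptosis (BAX, BBC3, FAS). It also induces genes that shut the response down again (MDM2, PPM1D). These transcripts are widely read as signs of DNA damage. GADD45B and GADD45G, relatives of GADD45A, were counted here as p53 targets. Most repair genes, in contrast, are expressed at steady levels and are controlled largely at the protein level.

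The arrays differed widely in how many probes had a value at all. A value was present for 1164 to 7250 probes per array (3.76 to 23.4% of all probes), and for 4 of the 44 member probes on B2 up to 30 on A2, with 25 on C1, 16 on the dye swap of B and 6 or 7 on the others. No intensities were used here, so the level of each gene and the depth behind a ratio are unknown. C2 stood apart from the other arrays. Over all probes, and with all ratios as deposited (Cy5 over Cy3), C2 correlated with the other arrays carrying exposed RNA in Cy5 at -0.19 to 0.10 and with the dye swaps at 0.36 to 0.42, whereas those other arrays correlated among themselves at 0.06 to 0.48 and with the dye swaps at -0.15 to 0.13. Of the members, PLK2, BRCA1, NBN, PARP1 and both RAD23B probes had a value on C2, and each is also given without it. The median of all probes was below 0 in samples B (-0.27) and C (-0.10) and above it in sample A (0.052), which matters for members measured in some samples only. Of 16 keratinocyte markers with a probe, 14 had a value on some array, against 1 of 7 fibroblast, 1 of 5 melanocyte and 1 of 3 leukocyte markers.

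Repair genes were measured far more often than p53 targets. A value on at least 1 array was found for 6 of the 13 p53 targets (46.2%) and for 23 of the 26 repair genes (88.5%), together 29 of 39 (74.4%), against 6417 of the 15207 genes of the whole array (42.2%). A value in at least 2 biological samples, needed for any test, was found for 5 p53 targets (38.5%) and 20 repair genes (76.9%), against 27.0% of all genes. Neither gene of the p53 feedback loop, MDM2 and PPM1D, had a value on any array, and the same was true of GADD45G, of the apoptosis genes BBC3 and FAS, and of TP53I3 and SESN1, both of redox and stress control. The repair genes without a value were BRCA2, OGG1 and LIG1. All 4 damage signalling kinases and all 7 genes of nucleotide excision repair had a value. A missing value says nothing on the direction of a gene, and which step of the processing left it out is not given in the sources used here.

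**Figure D1:**
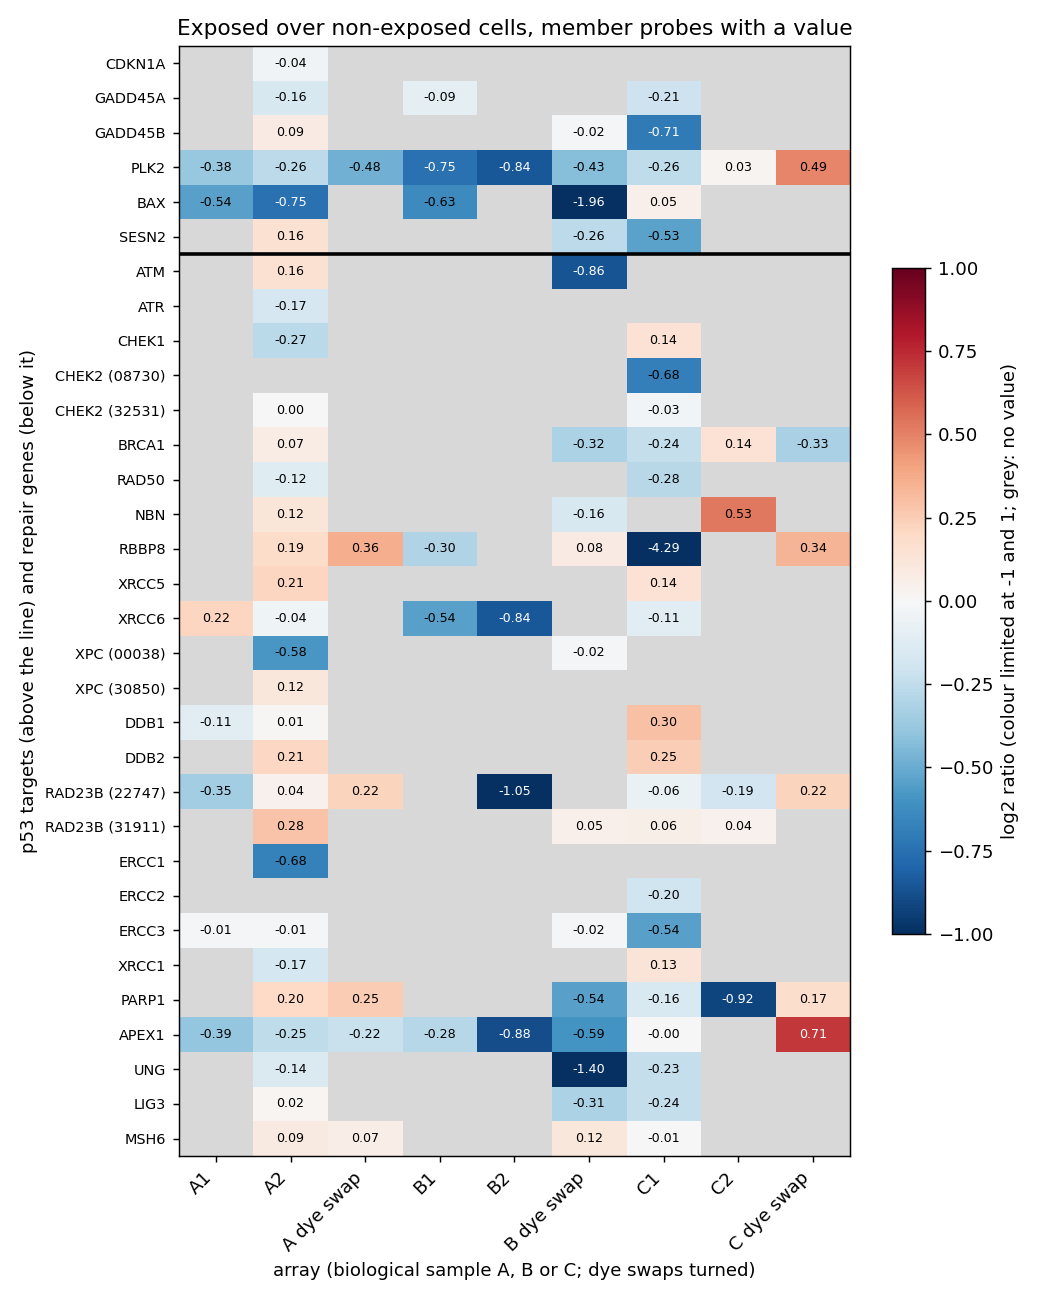
Log2 ratio of exposed over non-exposed cells for each member probe with a value (rows) on each of the 9 arrays (columns, dye swaps turned); p53 targets stand above the line and repair genes below it, blue is below 0, red above 0 (colour limited at -1 and 1) and grey means no value; numbers beside a gene are the last digits of its probe ID. Most values lie on A2, C1 and the dye swap of B, PLK2 has a value on all 9 arrays, and the RBBP8 cell on C1 (-4.29) lies outside the range of every other cell.

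PLK2, the single member with a value on all 9 arrays, and DDB2, the member with the highest mean ratio, both have a promoter that holds the letters of a p53 half-site, the 10-base unit that p53 binds in tandem pairs. The RefSeq windows of both (GRCh38.p14; 250 bases before to 50 bases after the start of transcription, 5′ to 3′ on the gene's strand) are shown because they carry that feature, with the half-sites in capitals. The PLK2 window is chr5:58460037-58460336 on the minus strand, with 1 half-site at position -132 from the start. The DDB2 window shown is chr11:47214724-47215023 on the plus strand, with 2 half-sites next to each other that begin 5 bases downstream of the first transcribed base. Another DDB2 window, chr11:47214204-47214503, holds 0 half-sites and is not shown.
PLK2: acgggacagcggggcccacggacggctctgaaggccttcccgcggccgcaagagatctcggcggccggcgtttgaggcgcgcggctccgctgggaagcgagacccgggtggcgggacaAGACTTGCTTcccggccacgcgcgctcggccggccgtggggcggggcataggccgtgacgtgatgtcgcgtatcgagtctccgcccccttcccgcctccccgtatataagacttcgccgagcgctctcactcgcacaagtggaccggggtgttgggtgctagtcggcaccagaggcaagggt
DDB2: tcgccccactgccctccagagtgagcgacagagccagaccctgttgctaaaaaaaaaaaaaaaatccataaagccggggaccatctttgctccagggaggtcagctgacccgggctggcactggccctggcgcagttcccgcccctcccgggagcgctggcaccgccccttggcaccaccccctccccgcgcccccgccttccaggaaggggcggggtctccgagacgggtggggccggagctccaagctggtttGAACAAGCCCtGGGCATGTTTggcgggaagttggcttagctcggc
The half-site was searched by its consensus with no mismatch, and as the consensus reads the same on both strands, 1 search covered both. It was found in 3 of the 19 windows of p53 targets (15.8%, those of PLK2, FAS and SESN1), in 2 of the 38 windows of repair genes (5.26%, those of DDB2 and UNG), and in 2329 of the 35116 windows of all genes (6.63%). Some genes have several windows, and 12 of 13 p53 targets and 24 of 26 repair genes had at least 1. A match is a description of the letters and not evidence of binding, and many p53 sites lie outside such windows.

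Of the p53 targets, none passed a test in either direction. All 5 with values in at least 2 samples had a mean ratio below 0, as did 65.8% of all 5688 probes measured so. The dye-balanced test averaged the arrays of each sample with equal weight on both dye orientations and fitted limma over the 570 probes with both orientations in all 3 samples, of which 3.86% passed, all of them lower in exposed cells. In that test every probe had the same SE, from a spread shared among the 570 probes, so its intervals and p-values do not measure a probe's own spread. The wider test, a limma fit over the 5688 probes measured in 2 or 3 samples in any orientation, passed 0% of them. PLK2, a polo-like kinase that slows the cell cycle after stress, had values of -0.38 on A1, -0.26 on A2 and -0.48 on the dye swap of A. In sample B it had -0.75 on B1, -0.84 on B2 and -0.43 on the dye swap, and in sample C -0.26 on C1, 0.026 on C2 and 0.49 on the dye swap. Samples A and B thus lay below 0 on all 6 arrays, whereas the arrays of sample C lay on both sides of 0. The dye-balanced test gave PLK2 a log2 ratio of -0.28 ± 0.41 (SD, n = 3; SE 0.15; 95% interval -0.58 to 0.026; adjusted p = 0.293). Without C2 the ratio was -0.30 (adjusted p = 0.225).

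BAX, which opens the outer mitochondrial membrane in apoptosis, had the lowest mean of all members. Its values were -0.54 on A1, -0.75 on A2, -0.63 on B1, -1.96 on the dye swap of B and 0.054 on C1. The 4 arrays of samples A and B lay below 0 and the single array of sample C above it. The wider test by limma gave -0.63 ± 0.68 (SD, n = 3; SE 0.27; 95% interval -1.27 to 0.012; adjusted p = 0.883). Among the alternatives tried, BAX passed the threshold only when the 9 arrays were fitted singly by limma with a dye term (-1.22, adjusted p = 0.00483). In that fit the dye swap of B stands alone for its orientation of BAX. It takes arrays of 1 sample, which are technical repeats, as single values with the sample as a random block. It passed 190 lower and 7 higher probes of 3727.

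The other p53 targets lay closer to 0. GADD45A, a growth arrest gene that also binds repair proteins, had -0.16 on A2, -0.094 on B1 and -0.21 on C1, and was the single p53 target below 0 in all 3 samples (mean -0.15 ± 0.059, SD). Its relative GADD45B had 0.085 on A2, -0.017 on the dye swap of B and -0.71 on C1 (mean -0.21 ± 0.43, SD). Both GADD45 genes thus had small values in samples A and B, and the mean of GADD45B rested on C1. SESN2, a sestrin that lowers oxidative stress and mTOR activity, had 0.16 on A2, -0.26 on the dye swap of B and -0.53 on C1 (mean -0.21 ± 0.35, SD). CDKN1A, the cyclin-dependent kinase inhibitor p21 and the classical p53 target, had a value on A2 only (-0.037) and was not tested.

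Among the repair genes RBBP8 alone passed the dye-balanced test, and its value rested on 1 array. RBBP8 (CtIP) starts the resection of broken DNA ends for homologous recombination. It had 0.19 on A2 and 0.36 on the dye swap of A, -0.30 on B1 and 0.082 on the dye swap of B, and -4.29 on C1 and 0.34 on the dye swap of C. The 3 dye swaps and A2 were above 0, B1 was below 0, and C1 was lower than any other value of a member. The sample means were 0.27 in A, -0.11 in B and -1.98 in C, and the test gave -0.60 ± 1.21 (SD, n = 3; SE 0.15; adjusted p = 0.00722), where the SE comes from the spread that limma shared among all 570 probes and not from the much wider spread of RBBP8. On its own spread RBBP8 had an adjusted p of 0.743, in the wider test 0.883 (SE 0.41), and without C1 the ratio was 0.17 (wider test, adjusted p = 0.942). Leaving out sample C gave 0.083 (adjusted p = 0.938), and leaving out sample A or B gave -1.04 or -0.85, both still past the threshold.

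RBBP8 was thus 1 member of the 3 in the dye-balanced test, where 22 of the 570 probes were lower and 0 higher (3.86%). At an unadjusted p under 0.05 the same limma fit held 116 probes (20.4%). In the wider test 0 of the 26 member probes and 0 of all 5688 probes passed (0%), and an unadjusted p under 0.05 was found for 0 member probes and for 216 of all probes (3.8%). The ratios of all probes lay mostly below 0, for 75.3% of the dye-balanced probes and 65.8% of the wider set. Centring each array on its median moved the median of the dye-balanced probes by 0.10 (it was -0.12 without centring) and, relative to the uncentred median, RBBP8 lay at -0.48, PLK2 at -0.15 and APEX1 at -0.046.

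The other genes of double-strand break repair did not pass a test. XRCC5 and XRCC6, the Ku80 and Ku70 subunits that together bind broken ends, differed in sign. XRCC5 had 0.21 on A2 and 0.14 on C1 and no value in sample B (mean 0.18 ± 0.049, SD, n = 2; adjusted p = 0.895), whereas XRCC6 had 0.22 on A1, -0.040 on A2, -0.54 on B1, -0.84 on B2 and -0.11 on C1 (mean -0.24 ± 0.41, SD, n = 3). In samples A and C both subunits lay between -0.11 and 0.22, and the low arrays of XRCC6 were those of sample B, where XRCC5 was not measured. RAD50 and NBN belong to the complex that tethers broken ends and activates ATM. RAD50 had -0.12 on A2 and -0.28 on C1, and NBN had 0.12 on A2, -0.16 on the dye swap of B and 0.53 on C2. The mean of NBN was 0.16 ± 0.35 (SD, n = 3) and -0.021 without C2, so its sign depended on that array. BRCA1, a scaffold of homologous recombination, ranged from -0.33 to 0.14 over 5 arrays, with a mean of -0.14 ± 0.20 (SD, n = 3) and of -0.18 without C2.

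In base excision and single-strand break repair, the means of all 5 measured genes lay below 0, as did 65.8% of all probes of the wider test, and none passed a test. APEX1, the endonuclease that cuts at sites where a damaged base has been removed, had -0.39 on A1, -0.25 on A2 and -0.22 on the dye swap of A. In sample B it had -0.28 on B1, -0.88 on B2 and -0.59 on the dye swap, and in sample C -0.0014 on C1 and 0.71 on the dye swap. Like PLK2, APEX1 thus lay below 0 on all arrays of samples A and B and had its highest value on the dye swap of C. The dye-balanced test gave -0.17 ± 0.48 (SD, n = 3; SE 0.15; 95% interval -0.47 to 0.13; adjusted p = 0.562 by limma). UNG, the glycosylase that removes uracil from DNA, had -0.14 on A2, -1.40 on the dye swap of B and -0.23 on C1. All 3 samples lay below 0, with the dye swap of B far from the other arrays, and the wider test gave -0.59 ± 0.70 (SD, n = 3; SE 0.28; 95% interval -1.25 to 0.063; adjusted p = 0.883 by limma). UNG too passed when the 9 arrays were fitted singly by limma with a dye term (-0.80, adjusted p = 0.0331), where 190 of 3727 probes were lower. PARP1, which senses single-strand breaks, ranged from -0.92 on C2 to 0.25 on the dye swap of A, and its mean was -0.17 ± 0.38 (SD, n = 3), or -0.10 without C2. LIG3 and XRCC1, the ligase and scaffold that seal such breaks, had means of -0.18 ± 0.17 (SD, n = 3) and -0.023 ± 0.21 (SD, n = 2).

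Nucleotide excision repair, which removes bulky lesions such as those of ultraviolet light, held the highest member. DDB2, a subunit of the damage sensor that p53 induces, had 0.21 on A2 and 0.25 on C1. Both arrays lay above 0, but neither is a dye swap and sample B is missing, and the wider test gave 0.23 ± 0.029 (SD, n = 2; SE 0.22; 95% interval -0.31 to 0.76; adjusted p = 0.883 by limma). Its partner DDB1 had -0.11 on A1, 0.0086 on A2 and 0.30 on C1, a mean of 0.12 ± 0.24 (SD, n = 2). XPC, which recognizes the distorted helix and is like DDB2 a p53 target, had -0.58 on A2 and -0.016 on the dye swap of B on 1 probe (PH_hs_0000038), while its other probe (PH_hs_0030850) had 0.12 on A2. The probes of XPC thus disagreed on the same array. RAD23B, the XPC partner, had means of -0.32 ± 0.63 on PH_hs_0022747 and 0.13 ± 0.14 on PH_hs_0031911 (SD, n = 3 each), and of -0.31 and 0.13 without C2. On shared arrays its probes lay closer, with 0.040 and 0.28 on A2, -0.065 and 0.055 on C1, and -0.19 and 0.041 on C2. The low mean of the first probe came from B2 (-1.05), an array on which the second probe had no value. ERCC3, a helicase of the TFIIH complex, lay between -0.022 and -0.010 on A1, A2 and the dye swap of B and at -0.54 on C1. ERCC1, a nuclease subunit, had a value on A2 only (-0.68), and ERCC2, the other TFIIH helicase, on C1 only (-0.20).

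The damage signalling kinases had few values. ATM, which responds to double-strand breaks, had 0.16 on A2 and -0.86 on the dye swap of B (mean -0.35 ± 0.72, SD, n = 2), and ATR, which responds to stalled forks, -0.17 on A2 only. CHEK1, the kinase downstream of ATR, had -0.27 on A2 and 0.14 on C1. CHEK2, the kinase downstream of ATM, had 0.0029 on A2 and -0.029 on C1 on 1 probe (PH_hs_0032531), and -0.68 on C1 on the other (PH_hs_0008730). ATM and CHEK1 thus had opposite signs in their samples, and the CHEK2 probes disagreed on C1. MSH6, a mismatch sensor, stayed between -0.0058 and 0.12 on its 4 arrays, with a mean of 0.063 ± 0.062 (SD, n = 3; 95% interval -0.33 to 0.45). In the wider test, the 26 member probes had an SE of 0.16 to 0.41 and adjusted p values of 0.883 to 0.990. On simulated data with 1 noise level for all probes, that test recovered 2% of changes of 0.25, 14% of changes of 0.5 and 86% of changes of 1 (log2). The simulated noise was independent between arrays, with no added difference between samples. At this precision small and moderate changes would mostly go undetected in the wider test.

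**Figure D2:**
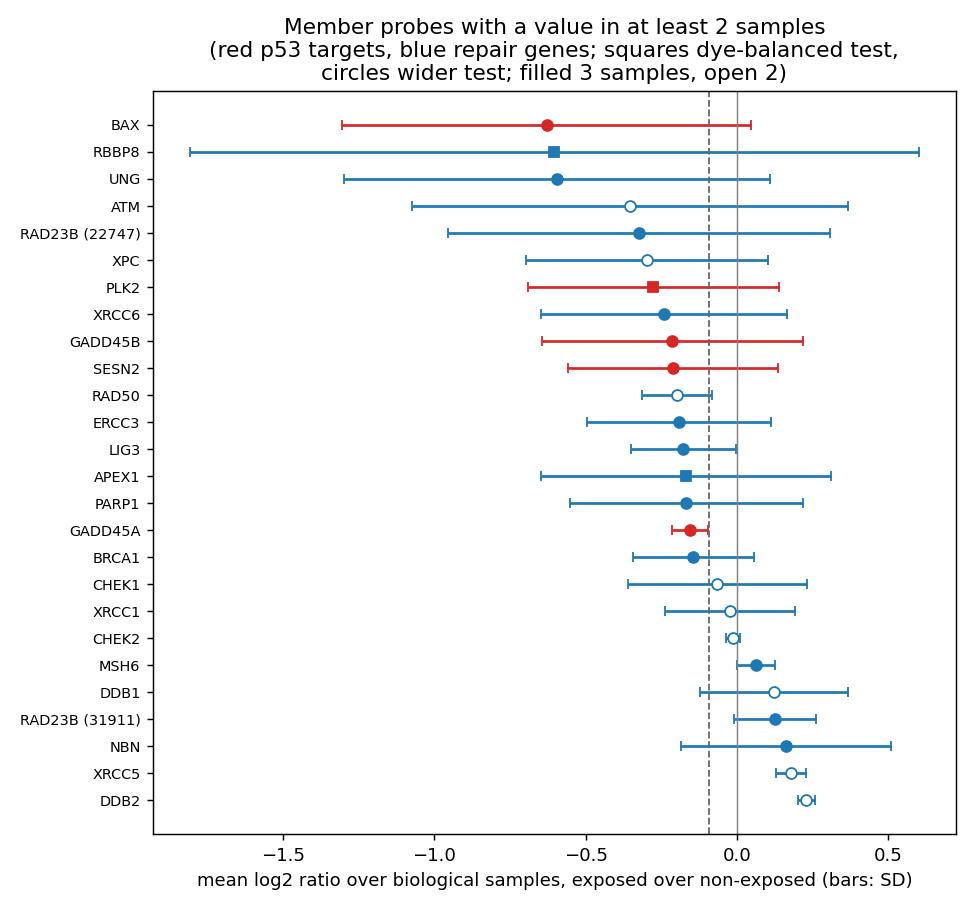
Mean log2 ratio of exposed over non-exposed cells (x axis) with its SD over biological samples (bars) for each member probe measured in 2 or 3 of them, p53 targets in red and repair genes in blue, squares for the dye-balanced test and circles for the wider test, filled for 3 samples and open for 2; the dashed line is the median of all probes (-0.091). BAX (-0.63) and DDB2 (0.23) are the lowest and the highest mean, RBBP8 has the widest spread (SD 1.21), and the narrow bars of DDB2 and XRCC5 rest on 2 samples.

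Set side by side, p53 targets and repair genes differed by less than the spread between samples. The median over genes with values in at least 2 samples (probes of a gene averaged) was -0.21 for the 5 p53 targets, with a range of -0.63 to -0.15, and -0.16 for the 20 repair genes, with a range of -0.60 to 0.23, beside -0.091 for all 5688 probes. All 5 p53 targets and 15 of the 20 repair genes lay below 0, against 65.8% of all 5688 probes, and 5 and 13 lay below the median of all probes. The medians of p53 targets were -0.16 in sample A, -0.26 in sample B and -0.21 in sample C, and those of repair genes 0.047, -0.32 and -0.059 in the same samples. The difference, p53 targets minus repair genes, was therefore -0.21 in A, 0.059 in B and -0.15 in C (SD 0.14), and -0.058 over the means. The repair medians rested on 20 genes in A, 13 in B and 18 in C, and the p53 medians on the same 5 genes throughout. The differences between samples thus also hold a change of genes. The repair medians lay close to those of all probes in each sample (0.052, -0.27 and -0.10). The p53 medians varied less (SD 0.050, against 0.19 for repair genes). With 5 genes, each p53 median is the value of 1 gene, GADD45A in samples A and C and SESN2 in B. The p53 median over the means (-0.21) is the mean of GADD45B, which rested on C1. The SDs of single p53 targets ran from 0.059 (GADD45A) to 0.68 (BAX), so the narrow medians do not show steadier genes. Without sample C the difference was 0.020, on the other side of 0, and without B it was -0.17. The p53 median was -0.36 without sample A (again the value of GADD45B) and -0.13 without sample C, and the repair median -0.018 without sample B. With each array centred, the medians were -0.085 for p53 targets and -0.024 for repair genes, beside -0.0068 for all probes. With 3 samples and 5 p53 targets, no p is given for either class.

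**Figure D3:**
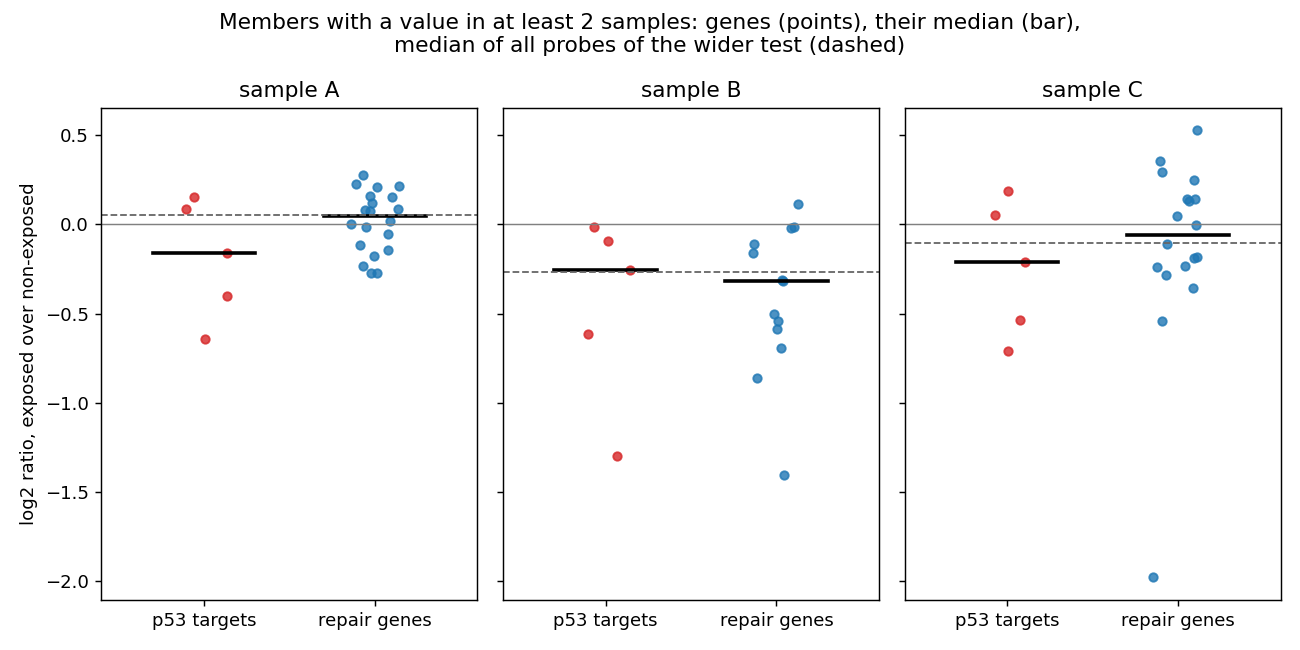
Log2 ratio of exposed over non-exposed cells of each gene with values in at least 2 samples, by biological sample, p53 targets (red, left) and repair genes (blue, right); the short bars are the class medians and the dashed lines the medians of all probes of the wider test. The p53 median is the lower in samples A and C and the higher in sample B, and the points of both classes overlap in every sample.

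Probes with values in all 3 samples allow a count of direction. Of the 5 such probes of p53 targets, 1 lay below 0 in all 3 samples (GADD45A), and of the 12 such probes of repair genes 2 did (UNG and ERCC3), against 24.5% of all probes measured in 3 samples. Above 0 in all 3 samples lay 0 of the probes of p53 targets and 1 of those of repair genes (RAD23B on PH_hs_0031911), against 6.58% of all probes. With so few probes, these counts do not set the members apart from the whole array.

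Both dye orientations were available for 17 member probes, 3 of them in every sample. The mean ratio lay below 0 in both orientations for 10 of the 17 and above 0 in both for 2 (MSH6 and RAD23B on PH_hs_0031911), against 39.7% and 11% of all 3748 probes with both orientations. RBBP8 and RAD23B on PH_hs_0022747 lay below 0 only with exposed RNA in Cy5, and ATM, NBN and BRCA1 only on the dye swaps. A dye effect, the part of the ratio that follows the dye and not the exposure, was tested by limma on the 9 arrays with the biological sample as a random block. It passed the threshold for 0 of the 3 members tested, against 43 of all 570 probes (7.54%), at -0.87 for RBBP8 (adjusted p = 0.129), -0.13 for PLK2 (adjusted p = 0.555) and -0.16 for APEX1 (adjusted p = 0.509). The dye effect of RBBP8, like its exposure ratio, rested on C1, and without that array it was -0.16 (adjusted p = 0.57).

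**Figure D4:**
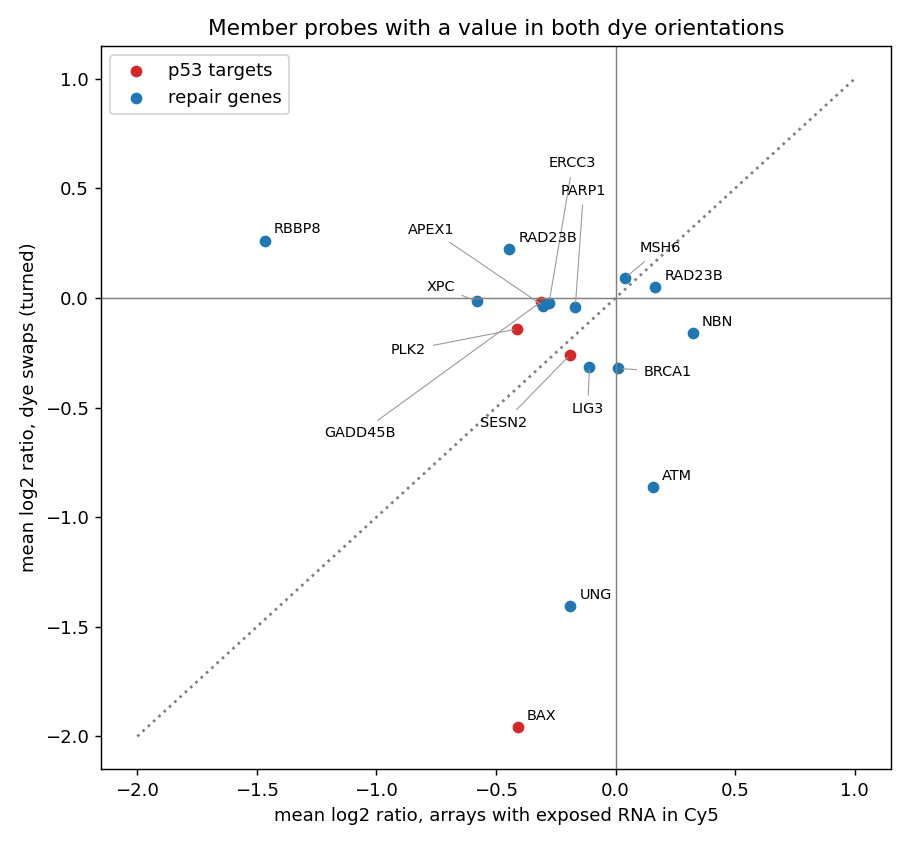
Mean log2 ratio of exposed over non-exposed cells where Cy5 carried the exposed RNA (x axis) against the turned dye swaps (y axis) for the 17 member probes with both, p53 targets in red and repair genes in blue; the dotted line marks equal values. Of these, 10 probes sit in the lower left quadrant, RBBP8 lies far to the left with a dye swap mean above 0, and BAX and UNG lie far below the line on the single dye swap of B.

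Other genes of the same pathways were followed from wider lists of 177 genes. Of these, 14 genes entered the dye-balanced test, where 1 was lower, 0 were higher and 13 did not pass, against 3.86% of all probes lower and 0% higher, with a median of -0.055 beside -0.12 for all probes. The gene that passed was CDK2, the kinase that p21 inhibits and that drives entry into S phase, which fell by 0.50 on the log2 scale (SD 0.25, SE 0.15, adjusted p = 0.0351 by limma), with -0.47 in sample A, -0.77 in B and -0.26 in C. CDK2 was thus below 0 in all 3 samples, but it no longer passed when any 1 sample was left out (-0.51 without A, -0.37 without B and -0.62 without C, with adjusted p of 0.0671 to 0.547), with centred arrays (-0.37, adjusted p = 0.105) or with quantile normalization (-0.42, adjusted p = 0.0669). The highest was CETN2, a centrin that binds XPC, with 0.41 in sample A, 0.11 in B and 0.26 in C (mean 0.26 ± 0.15, SD; adjusted p = 0.323). In the wider test 82 of the listed genes were measured, 0 passed in either direction, CDK2 included (adjusted p = 0.883), as for 0% of all probes, and 53 lay below 0 and 29 above it, where 65.8% of all probes lay below 0. By list, the medians of the wider test were -0.025 for 22 other p53 pathway genes, -0.12 for 12 of double-strand break repair, -0.16 for 10 of damage signalling, -0.019 for 9 of nucleotide excision repair, -0.21 for 13 of base excision repair and -0.024 for 16 of mismatch, bypass and direct repair.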

How the data were processed

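The table deposited by the authors held, for each of 9 arrays, log2 ratios of Cy5 over Cy3 after scanning and ScanArray Express normalization; that the log base is 2 was read from the values, 86.6 to 99.1% of which per array were log2 of a ratio in whole thousandths (tolerance 0.05 thousandths). The rule that left most probes without a value is not given in the sources used here, and no intensities were used. Directions came from the dyes in the labels. Of the 30968 probes, 17397 had 1 gene symbol in the platform annotation and 13571 had none. The values were not normalized further. The 2 arrays of a sample with exposed RNA in Cy5 were averaged, then averaged with the turned dye swap where present, and the 3 sample values were tested against 0 with lmFit and eBayes of limma 3.58.1 (R 4.3.3), two-sided, with Benjamini-Hochberg adjustment over all probes of a test and a threshold of 0.05. Probes were tested singly and averaged per gene for class medians only. The p-values rest on spreads between the 3 samples, which the study's methods call biological replicates. In the dye-balanced test that spread was shared among all its probes, and in the wider test it was only partly a probe's own. The study's methods describe its results in general as from independent experiments. The SAM test of the study's methods was not run; limma on the 3 sample values was used in its place, because arrays of 1 sample are technical repeats. The steps were tested on simulated data. All members with a value are named, with array values for those of the dye-balanced test and the 2 highest and 2 lowest of the wider test; of the other pathway genes, those past a threshold and the highest and lowest of the dye-balanced test are named. The members and lists were chosen with earlier results of these data known. Alternatives covered centring, quantile normalization, dye handling, the variance model, the filter, the class of XPC and DDB2, and leaving out arrays or samples; leaving out C2 or C1 (for the dye effect too) was chosen after seeing the data.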

Additional observations from a re-analysis of the deposited data

Results flagged for a closer look

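Among the 11 member probes with values on 4 to 10 arrays, 3 had 1 array far from the others, where chance gives about 1 in 20 and arrays of 1 sample are not independent. RBBP8 had -4.29 on C1, with its other 5 arrays between -0.30 and 0.36. ERCC3 had -0.54 on C1, with its other 3 arrays between -0.022 and -0.010. RAD23B on PH_hs_0031911 had 0.28 on A2, with its other 3 arrays between 0.041 and 0.055.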

How the results depend on the processing

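The member count of the dye-balanced test was 1 (RBBP8). It became 0 with centred arrays (RBBP8 at -0.47, adjusted p = 0.248), quantile normalization (-0.36, 0.254) or dye swaps left as deposited (-0.87, 0.188). It was 0 too with only the dye swaps (0.26, 0.38) or each probe on its own spread (-0.60, 0.743). The 9 arrays fitted singly with a dye term and the sample as a random block also gave 0 (-0.60, 0.325). With samples left out, the count was 1 without A or B and 0 without C, and RBBP8 lay between -1.04 and 0.083. Without the replicate 1 or the replicate 2 arrays the count was 0, but RBBP8 then lacked an orientation and was not tested. Without C1, RBBP8 lay at 0.17 in the wider test. The count of all lower and higher probes was 22 and 0, and became 13 and 4 with centring, 9 and 1 with quantile normalization, 0 and 33 with dye swaps as deposited, 5 and 14 with only Cy5-exposed arrays, 10 and 0 with only dye swaps, 8 and 3 with a plain mean of the arrays, 0 and 0 on each probe's own spread, 9 and 0 with the arrays fitted singly, and 37 and 1 without C2. The member count of the wider test was 0, where 0 lower and 0 higher probes of 5688 passed. It became 1 with only Cy5-exposed arrays (RBBP8, -1.47, adjusted p = 6.12e-10), where 10 lower and 46 higher probes of 5060 passed. It became 2 with the arrays fitted singly (BAX and UNG), where 190 lower and 7 higher probes of 3727 passed. Without sample B, 0 members and 5 lower and 18 higher probes passed. Without sample C, 0 members and 1 lower and 1 higher probe of 3738 passed. On each probe's own spread, 0 members and 0 lower and 3 higher probes of 5688 passed. The p53 target median (-0.21) became -0.085 with centring, -0.13 with dye swaps as deposited and -0.31 with only Cy5-exposed arrays (the value of GADD45B). It was -0.14 with only dye swaps and -0.28 in dye-balanced members alone (both PLK2 alone). It was -0.15 without the replicate 1 arrays, and ranged from -0.36 to -0.13 with samples or arrays left out. The repair median (-0.16) was -0.030 with dye swaps as deposited, 0.028 with only dye swaps and -0.39 in dye-balanced members alone (2 genes, APEX1 and RBBP8), and ranged from -0.28 to -0.018 with samples or arrays left out. The difference between the medians became 0.11 in dye-balanced members alone (1 gene against 2) and ranged from -0.22 to 0.020 with samples or arrays left out. Signs turned with dye swaps as deposited for LIG3 (0.032), PARP1 (0.055), BRCA1 (0.18), MSH6 (-0.038), ATM (0.51), BAX (0.024), UNG (0.34), CDK2 (0.25) and CETN2 (-0.12), as the turning of the swaps itself decides those means; with centring for XRCC1 (0.017) and CHEK2 (0.027); with only Cy5-exposed arrays for BRCA1 (0.012); with only dye swaps for RAD23B on PH_hs_0022747 (0.22); and without C2 for NBN (-0.021). With samples or arrays left out, NBN ranged from -0.021 to 0.32, APEX1 from -0.43 to 0.041, PARP1 from -0.36 to 0.022, RAD23B on PH_hs_0022747 from -0.51 to 0.041 (0.0083 without the replicate 2 arrays) and GADD45B from -0.36 to 0.034. CDK2 (-0.50, adjusted p = 0.0351) had adjusted p values of 0.0526 to 0.799 in every other alternative without a turned sign except leaving out C2 (0.0281). The cause of these changes was not tested otherwise. Each ratio already pairs exposed with non-exposed RNA on 1 array, so no further pairing was fitted.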
